A study of Saccharomyces cerevisiae with 8 samples.

Results

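Heat shock was compared directly with inhibition of the Mediator kinase Srb10, in newly made RNA of budding yeast (Saccharomyces cerevisiae). The 2 libraries of cells held at 37 °C with the solvent DMSO were set against the 2 libraries of cells kept at 30 °C with the kinase inhibitor 1-NA-PP1, which makes 4 of the 8 libraries measured. The other 4 libraries, DMSO at 30 °C (steady state) and 1-NA-PP1 at 37 °C, entered the same model, and the DMSO libraries at 30 °C give the starting level. Of 4928 transcripts counted, 4901 were tested.

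All 4 groups came from 1 haploid strain of mating type alpha with deletions of ade2, his3, leu2, lys2, met15, trp1 and ura3. In it the chromosomal srb10 gene is replaced by KanMX, and a centromeric TRP1 plasmid, pSH599, carries srb10as-1, a form of the kinase made sensitive to 1-NA-PP1. Both treatments therefore act on cells whose only Srb10 is the plasmid form. At 30 °C cultures were grown to an OD600 of 0.8, having started at 0.1, and received 6 µM 1-NA-PP1 or DMSO for 12 minutes, after which the heat shock cultures had 12 further minutes at 37 °C. New RNA was labelled with 5 mM 4tU, a modified uracil, for 5 minutes. The treatments thus differ in inhibitor, in temperature and in the added minutes, and these cannot be told apart in the direct comparison. The labels do not say that replicates were separate cultures, so p-values measure only the spread between these libraries, which may be technical.

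Mediator passes signals from DNA-bound activators to RNA polymerase II. Its kinase module, made of the kinase Srb10 (Cdk8), its cyclin Srb11, Srb8 and Srb9, binds Mediator reversibly, and Srb10 phosphorylates several activators, among them Gcn4, Ste12 and Msn2. A rise in temperature activates Hsf1, which drives chaperone genes through the heat shock element, and Msn2 and Msn4, which drive general stress genes through the stress response element. It also lowers transcription of ribosome genes for a time and slows the cell cycle in G1.

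The heat shock libraries with DMSO held 17743527 and 14680275 counts and the 1-NA-PP1 libraries 65134744 and 61566972, so the heat shock side has the larger counting error. A count of 0 allows up to 0.220 CPM (counts scaled by library size, as edgeR gives them) in the shallowest of these 4 libraries. Replicates differed by a median of 0.13 on the log2 scale in both groups, against 0.06 in DMSO at steady state. Within the 1-NA-PP1 group, replicate 2 lay further from DMSO than replicate 1 for stress and ribosome genes, so results on those genes are also given without one or the other.

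A total of 2531 genes, 51.6% of those tested, differed between the treatments, 1227 (25%) higher under heat shock and 1304 (26.6%) higher with 1-NA-PP1. Called here and below means a Benjamini-Hochberg adjusted p under 0.05 in edgeR's quasi-likelihood test. Most of these differences were small: 160 called genes were at least 2-fold higher under heat shock and 217 at least 2-fold higher with 1-NA-PP1. At 4-fold the counts were 34 and 32. Alike levels were also common. For 2864 genes (58.4%) the 90% interval of the difference lay within 1.5-fold in either direction, and 848 of these were called as well, since a difference can be small and precise. A further 354 genes were neither called nor alike. Over all genes the median log2 difference, heat shock minus 1-NA-PP1, was −0.01, and its median standard error (SE) 0.10.

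Of the alike genes, 2655 lay within 1.5-fold of DMSO at steady state in both treatments by the estimated changes, to which the interval rule was not applied. Far fewer lay away from DMSO in both treatments: 15 were more than 1.5-fold above it in both and 46 more than 1.5-fold below it. These 15 and 46 genes were picked by the estimated changes alone. Both changes are measured from the same DMSO libraries, and edgeR called 0 genes for 1-NA-PP1 against DMSO, so movement away from DMSO was not shown gene by gene.

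**Figure D1:**
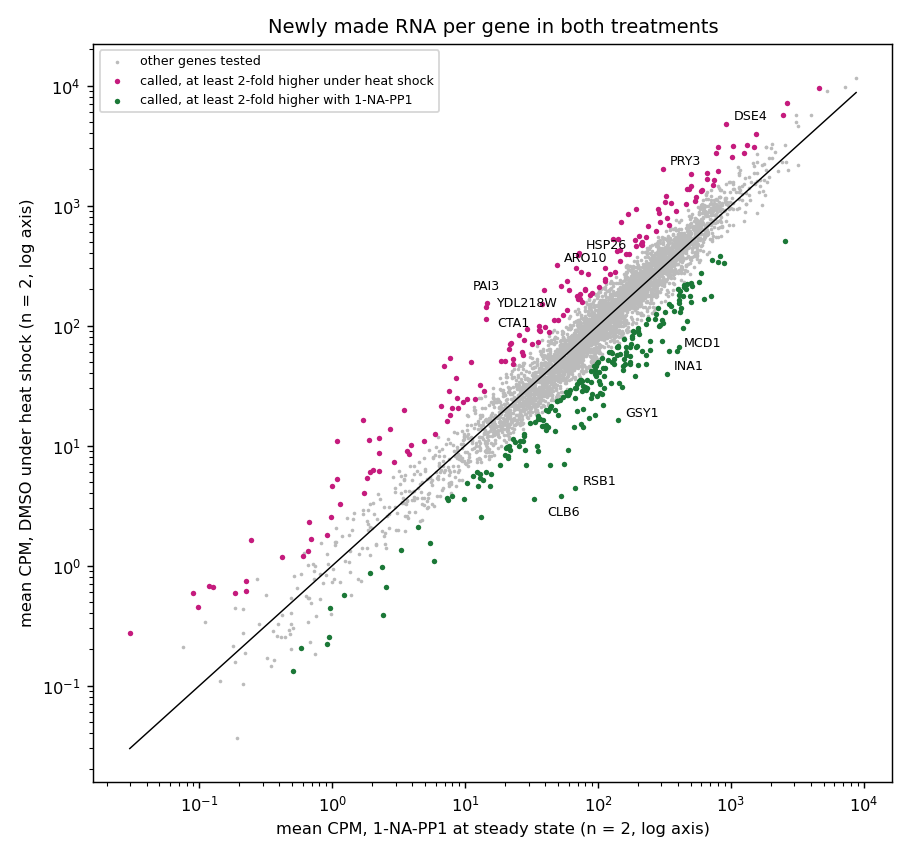
Mean level of newly made RNA per gene in CPM with 1-NA-PP1 at steady state (x, log axis) and with DMSO under heat shock (y, log axis), 2 libraries each; the line marks equal levels. Most of the 4901 genes lie along the line, and 160 and 217 called genes lie at least 2-fold above and below it.

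The 300 bases before the transcript start are shown for 6 genes from the groups described below. They were picked as examples rather than by a fixed rule, and do not show how common a motif is in a group. HSP78 (Hsf1 list) and PAI3 were higher under heat shock, and MCD1 higher with 1-NA-PP1. UIP4 was at alike levels above DMSO, and SSF1 and NSA2 at alike levels below it. Capitals mark every match, on either strand, to 6 motifs: the heat shock element (GAA, TTC and GAA with 2 free bases between each), the stress response element AGGGG, the Gcn4 site TGACTCA, the PAC element GATGAG, the RRPE element AAAAATTT and the MluI cell cycle box ACGCGT. Sequences are from RefSeq R64 (sacCer3), 5′ to 3′ on the gene's strand, ending at the base before the authors' transcript start.
HSP78, chrIV:974273-974572, minus strand: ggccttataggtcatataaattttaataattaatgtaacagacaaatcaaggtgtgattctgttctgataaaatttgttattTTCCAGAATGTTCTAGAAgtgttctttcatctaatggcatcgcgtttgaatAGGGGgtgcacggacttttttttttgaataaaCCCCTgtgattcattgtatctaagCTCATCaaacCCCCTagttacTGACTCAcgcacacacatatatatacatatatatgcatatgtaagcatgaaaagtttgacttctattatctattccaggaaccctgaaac
PAI3, chrXIII:610400-610699, minus strand: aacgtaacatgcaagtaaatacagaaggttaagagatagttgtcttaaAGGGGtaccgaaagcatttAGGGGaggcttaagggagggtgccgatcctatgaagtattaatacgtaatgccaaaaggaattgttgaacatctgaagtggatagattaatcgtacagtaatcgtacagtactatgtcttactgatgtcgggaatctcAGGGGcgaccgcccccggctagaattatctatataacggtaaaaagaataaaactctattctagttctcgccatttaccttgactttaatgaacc
UIP4, chrXVI:195480-195779, minus strand: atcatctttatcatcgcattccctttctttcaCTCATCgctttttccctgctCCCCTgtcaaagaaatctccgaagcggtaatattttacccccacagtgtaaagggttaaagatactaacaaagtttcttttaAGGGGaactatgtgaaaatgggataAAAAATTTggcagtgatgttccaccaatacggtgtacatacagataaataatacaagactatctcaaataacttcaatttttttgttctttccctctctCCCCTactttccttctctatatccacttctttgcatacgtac
SSF1, chrVIII:229012-229311, plus strand: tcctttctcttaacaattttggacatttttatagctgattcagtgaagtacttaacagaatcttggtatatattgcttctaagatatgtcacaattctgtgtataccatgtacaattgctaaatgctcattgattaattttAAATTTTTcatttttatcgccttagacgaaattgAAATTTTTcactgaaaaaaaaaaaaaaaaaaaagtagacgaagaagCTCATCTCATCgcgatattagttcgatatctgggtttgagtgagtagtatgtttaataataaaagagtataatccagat
NSA2, chrV:414207-414506, minus strand: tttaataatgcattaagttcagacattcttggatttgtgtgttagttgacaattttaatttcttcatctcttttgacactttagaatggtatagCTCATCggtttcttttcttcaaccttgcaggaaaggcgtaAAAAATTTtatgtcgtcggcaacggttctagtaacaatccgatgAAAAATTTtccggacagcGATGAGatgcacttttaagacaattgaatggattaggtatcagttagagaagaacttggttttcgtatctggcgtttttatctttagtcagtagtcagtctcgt
MCD1, chrIV:444302-444601, plus strand: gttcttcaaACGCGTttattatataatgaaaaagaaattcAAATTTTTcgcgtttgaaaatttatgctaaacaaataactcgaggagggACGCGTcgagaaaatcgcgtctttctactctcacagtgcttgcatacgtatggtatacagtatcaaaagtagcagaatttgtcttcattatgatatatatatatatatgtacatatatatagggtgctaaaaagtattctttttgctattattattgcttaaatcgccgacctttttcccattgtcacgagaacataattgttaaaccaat
HSP78 has a pair of heat shock elements that overlap, the first starting 218 bases before the transcript start, and 3 stress response elements. PAI3 and UIP4 each have 3 stress response elements. UIP4 also has 1 PAC and 1 RRPE element, HSP78 has 1 PAC element and 1 Gcn4 site, and MCD1 has 1 RRPE element. SSF1 and NSA2 each have 2 PAC and 2 RRPE elements, and in SSF1 the PAC matches share a base. MCD1 has 2 MluI cell cycle boxes, 291 and 211 bases before the start. Other genes named below lack such matches: SSA3 and SSA4 have no heat shock element of this form, and RSB1 and CLB6 no MluI cell cycle box.

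The genes furthest apart were read by a fixed rule, the 12 largest differences in each direction among called genes whose mean log2 CPM reached 3 and whose 4 libraries did not overlap between treatments. Every called gene met that last condition, as did 71.7% of all genes tested. On the heat shock side PAI3, on chromosome XIII from 609997 to 610399, came first; it encodes an inhibitor of the vacuolar protease proteinase A. It stood at 117 and 192 CPM under heat shock, 10.4 and 18.8 CPM with 1-NA-PP1 and 6.15 and 5.71 CPM with DMSO. Every heat shock library lay far above every 1-NA-PP1 library, which in turn lay above DMSO. The level was 10.6-fold higher under heat shock (log2 difference 3.40, SE 0.31, edgeR adjusted p = 7.16e-05). CTA1, which encodes peroxisomal catalase A, had 116 and 109 CPM under heat shock against 13.1 and 15.5 CPM with 1-NA-PP1. That is a 7.86-fold difference (log2 2.97, SE 0.11), and the inhibitor libraries were close to DMSO at 10.4 and 10.7 CPM. HSP26, a small heat shock protein that holds unfolded proteins, had 401 and 403 CPM under heat shock, 51.3 and 92.4 CPM with 1-NA-PP1 and 36.1 and 27.1 CPM with DMSO. It was 5.60-fold higher under heat shock (log2 2.49, SE 0.28), and the inhibitor libraries differed from each other by about as much as from DMSO.

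ARO10, which encodes a decarboxylase of aromatic amino acid breakdown, had 326 and 309 CPM under heat shock and 49.3 and 48.2 CPM with 1-NA-PP1, with DMSO at 42.3 and 42.9 CPM. Its 6.51-fold difference was among the most precise (SE 0.07 on the log2 scale). DSE4, a secreted glucanase that helps daughter cells separate, had 4828 and 4776 CPM under heat shock against 891 and 948 CPM with 1-NA-PP1, a 5.22-fold difference. The remaining 7 of the 12 were YDL218W (log2 3.34), GRE1 (2.81), YOR338W (2.73), PRY3 (2.72), SPS100 (2.5), HSP30 (2.46) and GND2 (2.32). GRE1 is a hydrophilin induced by stress, SPS100 a protein of the spore wall, HSP30 a stress-induced regulator of the plasma membrane proton pump, and GND2 the minor phosphogluconate dehydrogenase. PRY3, HSP30 and GND2 overlap a gene on the opposite strand, and the strand of counting is not stated, so their values are uncertain.

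On the other side RSB1, which encodes a membrane protein for the export of sphingoid long-chain bases, had 39.5 and 94.9 CPM with 1-NA-PP1, 4.33 and 4.47 CPM under heat shock and 20.6 and 20.1 CPM with DMSO. The 3 groups did not overlap, with the inhibitor above DMSO and heat shock below it. The level was 15.3-fold higher with 1-NA-PP1 (log2 −3.93, SE 0.42, edgeR adjusted p = 0.000156). CLB6, an S phase cyclin, was 14.3-fold higher with the inhibitor (log2 −3.83, SE 0.21). Its libraries held 52.1 and 53.6 CPM with 1-NA-PP1, 2.70 and 4.84 CPM under heat shock and 46.5 and 41.0 CPM with DMSO, so the inhibitor group was near DMSO. GSY1, the minor glycogen synthase, fell to 21.4 and 11.1 CPM under heat shock from 135 and 112 CPM with DMSO, and had 125 and 156 CPM with 1-NA-PP1. FEX1 (log2 −3.21), a fluoride exporter, INA1 (−3.06), YGR035C (−2.98), ACM1 (−2.70), MCD1 (−2.67), POL30 (−2.66), RNR1 (−2.63), MTH1 (−2.47) and HXT4 (−2.43) completed the 12. FEX1 has a near-identical copy and HXT4 close relatives whose reads may be split, and INA1 and RNR1 overlap a gene on the opposite strand. MTH1 and HXT4 belong to glucose sensing and transport, as a repressor of hexose transporter genes and as one of those transporters. All 24 genes kept their call when any 1 of the 8 libraries was left out.

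**Figure D2:**
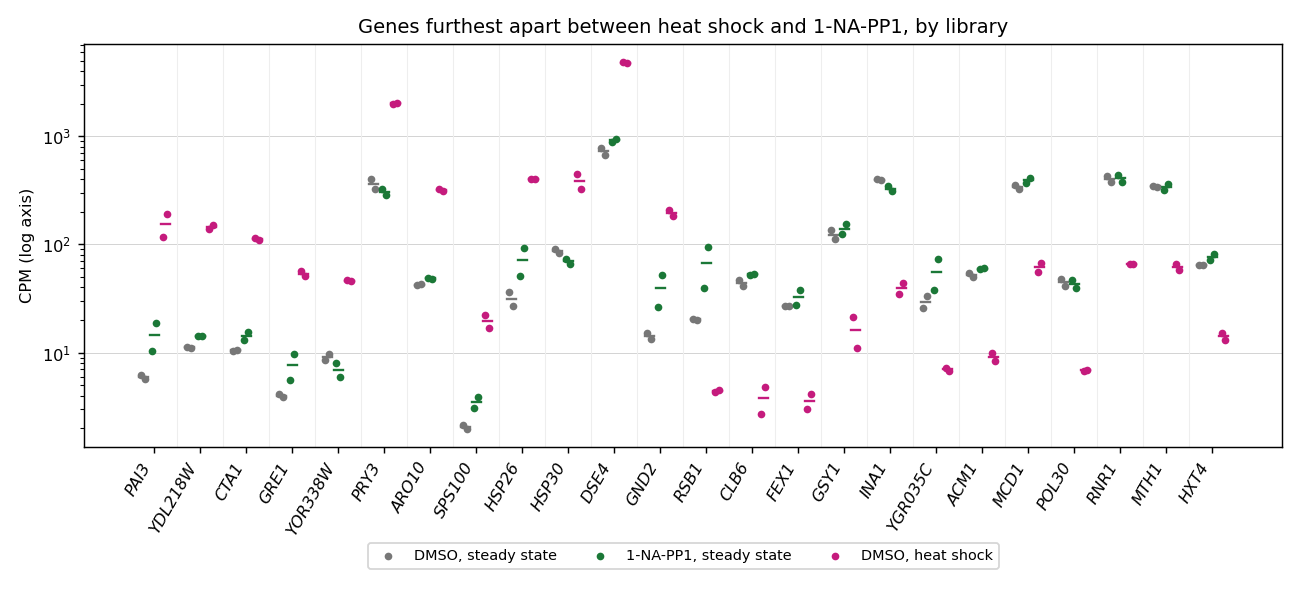
CPM (log axis) of the 24 genes furthest apart, 12 in each direction, with 1 point per library, a bar at the mean of the 2 libraries, and DMSO at steady state, 1-NA-PP1 at steady state and DMSO under heat shock side by side. In the left 12 the heat shock points stand alone at the top and in the right 12 alone at the bottom, while the 1-NA-PP1 points of most genes lie near DMSO; RSB1, YGR035C, PAI3 and GND2 are among those where they do not.

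Groups of genes were then read from lists, each beside the same counts over all genes: 25% called higher under heat shock, 26.6% called higher with 1-NA-PP1 and 58.4% alike. The lists were chosen with earlier results of these data known. Targets of Hsf1, the chaperone genes, separated the treatments in 1 direction. Of 25 tested, 23 (92%) were higher under heat shock and 0 were higher with 1-NA-PP1, with a median log2 difference of 0.74. SSA3, a cytosolic Hsp70 chaperone, had 902 and 790 CPM under heat shock, 166 and 173 CPM with 1-NA-PP1 and 162 and 153 CPM with DMSO. It was 5.00-fold higher under heat shock (SE 0.11 on the log2 scale), and the inhibitor libraries were only a little above DMSO. HSP78, the mitochondrial disaggregase whose promoter is printed above, had 3477 and 2842 CPM under heat shock, 1124 and 963 CPM with 1-NA-PP1 and 1366 and 1296 CPM with DMSO. Here the inhibitor libraries lay below DMSO, and the difference between the treatments was 3.03-fold (edgeR adjusted p = 2.10e-05).

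SSA4, another cytosolic Hsp70, was 2.48-fold higher under heat shock, at 2865 and 2208 CPM against 921 and 1123 CPM with 1-NA-PP1. HSP104, the cytosolic disaggregase (log2 0.87), and BTN2, a protein that sorts misfolded proteins (0.51), were also higher. Some chaperone genes were called yet alike within 1.5-fold, namely HSP42 (0.29), HSP10 (0.32) and SSA2 (0.37). CUR1 (−0.19) and MBF1 (−0.17) were the 2 not called, and both were alike. Against DMSO at steady state the list's median log2 change was 0.40 for heat shock and −0.27 for 1-NA-PP1, and 22 of the 25 lay below DMSO with the inhibitor. These 2 changes share the DMSO libraries. The heat shock element stood in 52% of the promoters of this list and in 1.14% of all 4928 promoters. SSA1 and SSA2 are close copies, as are HSC82 and HSP82, and their reads may be split.

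General stress genes, the Msn2 and Msn4 group, lay above DMSO in both treatments, with a median log2 change of 1.3 for heat shock and 0.71 for 1-NA-PP1. Heat shock was still ahead: 19 of 29 were called higher under heat shock, 0 higher with 1-NA-PP1 and 5 alike, with a median difference of 0.70. CTT1, cytosolic catalase T, stepped from 161 and 134 CPM with DMSO to 247 and 399 CPM with 1-NA-PP1 and 665 and 565 CPM under heat shock. The 3 groups did not overlap, and the last 2 differed by 1.91-fold (SE 0.23 on the log2 scale, edgeR adjusted p = 0.0103). HSP12, a membrane-stabilizing stress protein, had 214 and 202 CPM with DMSO, 309 and 499 CPM with 1-NA-PP1 and 854 and 607 CPM under heat shock, a 1.81-fold difference between the treatments (adjusted p = 0.0206). Members at alike levels included YGP1 (−0.18), a secreted glycoprotein, TPS2 (0.00), the phosphatase of trehalose synthesis, and PNC1 (0.11), a nicotinamidase. Without replicate 1 of 1-NA-PP1 at steady state, 17 were higher under heat shock, 3 higher with 1-NA-PP1 and the median was 0.50. Without replicate 2 the counts were 22 and 0 and the median 0.93. Leaving out replicate 1 of heat shock with DMSO lowered the count to 11, with 2 higher with 1-NA-PP1. The stress response element was in 86.2% of these promoters and in 23.0% of all.

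Trehalose and glycogen genes were split, with 6 of 14 higher under heat shock and 4 higher with 1-NA-PP1. TSL1, a subunit of trehalose synthase, had 6489 and 4824 CPM under heat shock against 2137 and 2832 CPM with 1-NA-PP1 (log2 1.19). NTH2 (1.16) and TPS1 (0.95), a trehalase and the trehalose-phosphate synthase, were on the same side. GSY1 (−3.10), PGM1 (−0.84) and the glycogenins GLG1 (−0.65) and GLG2 (−0.74) were on the other. Thus the 2 glycogen synthase genes went opposite ways, GSY2 being 0.78 higher under heat shock on the log2 scale.

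The cell cycle lists showed the widest separation in the other direction. All 24 G1/S genes tested were called higher with 1-NA-PP1, with a median log2 difference of −1.50. So were 10 of 10 histone genes (median −1.62) and 10 of 11 G2/M genes (median −1.44), ASE1 (−0.12) being the exception. The inhibitor libraries of these lists lay near DMSO, with median log2 changes of 0.18, 0.10 and 0.09, and the heat shock libraries well below it, with −1.38, −1.65 and −1.28. MCD1, a subunit of the cohesin ring that holds sister chromatids together, had 371 and 410 CPM with 1-NA-PP1, 353 and 327 CPM with DMSO and 56.2 and 66.8 CPM under heat shock. It was 6.35-fold higher with the inhibitor (SE 0.10 on the log2 scale, edgeR adjusted p = 1.77e-06). POL30, the sliding clamp of DNA replication, had 46.9 and 39.4 CPM with 1-NA-PP1 against 6.79 and 6.90 CPM under heat shock, a 6.31-fold difference.

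The histone H4 gene HHF1 had 400 and 467 CPM with 1-NA-PP1, 372 and 383 CPM with DMSO and 99.4 and 90.4 CPM under heat shock (4.56-fold). Histone genes come in near-identical pairs, so the split between HHF1 and HHF2 (−1.72) is uncertain. Among G2/M genes SWI5 (−1.90), a transcription factor of late mitosis, and the mitotic cyclins CLB2 (−1.67) and CLB1 (−1.55) were 3 of the furthest apart, and SWI5 overlaps a gene on the opposite strand. The MluI cell cycle box, bound by the G1/S factor MBF, was present in 58.3% of G1/S promoters, in 18% of the 217 promoters of genes 2-fold higher with 1-NA-PP1 and in 3.94% of all. Among those 217 genes, 18 were on the G1/S list, 9 on the histone list and 8 on the G2/M list, while 163 (75.1%) were on none of the 30 lists. In these bulk cultures, fewer cells in a cycle phase and less new RNA per cell cannot be told apart.

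By estimated change, ribosome genes were the largest listed group among alike genes away from DMSO. Neither ribosome list was alike more often than all genes tested. Of the 61 alike genes at least 1.5-fold away from DMSO in both treatments, 46 lay below and 15 above. The 46 included 15 of the 70 ribosome biogenesis genes tested and 8 of the 134 ribosomal protein genes. A further 20 (43.5%) were on none of the 30 lists. SSF1, a factor of large subunit assembly, had 105 and 55.5 CPM with 1-NA-PP1, 69.5 and 91.2 CPM under heat shock and 146 and 161 CPM with DMSO. The treatments overlapped and both lay below DMSO, and the difference was 0.00 with a 90% interval of −0.49 to 0.49 on the log2 scale. NSA2, also a factor of the large subunit, had 77.8 and 48.5 CPM with 1-NA-PP1, 54.0 and 65.1 CPM under heat shock and 97.6 and 122 CPM with DMSO, with an interval of −0.48 to 0.31. RPF2 (0.00), RRP36 (0.13), RRS1 (−0.14) and RRP8 (−0.10), all ribosome assembly factors, RPS26B (−0.07), a small subunit protein with a near-identical copy, and RFU1 (−0.08), an inhibitor of ubiquitin recycling, made up the 8 furthest below DMSO. RPF2, RRP8 and RFU1 overlap a gene on the opposite strand.

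These alike calls rested on inhibitor replicates that lay on either side of the heat shock level. SSF1 was alike in 4 of 8 fits that left out 1 library, NSA2 in 5 and RRP36 in 1. For SSF1 the difference was 0.53 without replicate 1 of 1-NA-PP1 at steady state and −0.39 without replicate 2. Over the ribosome biogenesis list, 7 of 70 were higher under heat shock, 3 higher with 1-NA-PP1 and 27 (38.6%) alike, a smaller share than the 58.4% of all genes. Without replicate 1 of 1-NA-PP1 the list gave 53 higher under heat shock and 0 higher with 1-NA-PP1 (median 0.59), and without replicate 2 it gave 6, 14 and 55 alike (median −0.03). Ribosomal protein genes gave 1 of 134 higher under heat shock, 25 higher with 1-NA-PP1 and 68 (50.7%) alike. Without replicate 1 there were 33 and 8, and leaving out replicate 2 gave 1 and 87. The heat shock libraries mattered too: without replicate 1 of heat shock with DMSO, 10 biogenesis genes and 39 ribosomal protein genes were alike, and 37 of the latter without its replicate 2. The 7 biogenesis genes higher under heat shock became 1 to 4 when any 1 of the 4 libraries at 37 °C was left out. The 25 ribosomal protein genes higher with 1-NA-PP1 became 9 and 12 without replicate 1 and 2 of heat shock with DMSO, and 16 without either DMSO library at steady state. Whether ribosome genes were alike or apart thus depended on which libraries were kept. NOP7, an assembly factor of the large subunit with an antisense neighbour, had 249 and 140 CPM with 1-NA-PP1 against 374 and 540 CPM under heat shock, the latter near the 376 and 404 CPM of DMSO (log2 difference 1.23, adjusted p = 0.00473). RPL30, a large subunit protein, went the other way, at 79.3 and 65.8 CPM with 1-NA-PP1 and 31.7 and 35.7 CPM under heat shock (log2 −1.11).

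The 15 genes at alike levels above DMSO by estimated change were led by UIP4, a protein of the nuclear envelope and endoplasmic reticulum. It had 60.9 and 109 CPM with 1-NA-PP1, 91.6 and 86.4 CPM under heat shock and 44.0 and 38.3 CPM with DMSO, and the interval of the difference was −0.40 to 0.53. AGX1 (0.02), which makes glycine from glyoxylate, UGX2 (−0.03), EDS1 (0.09), TOS8 (0.10), the vacuolar ribonuclease RNY1 (0.23), the glycolytic enolase ENO1 (−0.20) and the GATA factor GAT2 (−0.03) followed. TOS8 and GAT2 stayed alike in all 8 fits that left out 1 library, and UIP4 in 5 of them. Among alike genes with the most new RNA, OYE2, an NADPH oxidoreductase, had 2527 and 2336 CPM with 1-NA-PP1 and 2348 and 2262 CPM under heat shock (−0.08). GSH1, of glutathione synthesis, had 2115 and 2151 CPM against 2612 and 2935 CPM, a difference that was called (0.38) yet within the interval for alike levels. ENO1 has a close copy. UIP4, AGX1, UGX2, EDS1, RNY1 and GAT2 overlap a gene on the opposite strand.

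**Figure D3:**
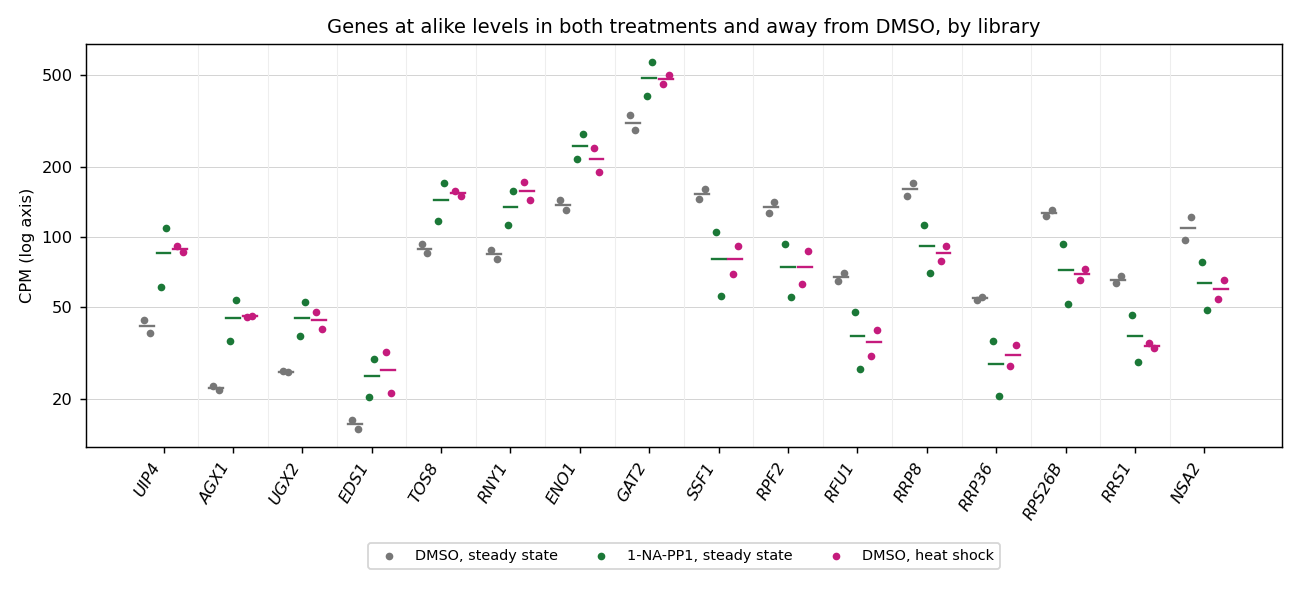
CPM (log axis) of 16 genes at alike levels in both treatments and furthest from DMSO at steady state, with 1 point per library and a bar at the mean of the 2 libraries. The 8 genes on the left lie above DMSO in both treatments and the 8 on the right below it; the 2 inhibitor points of a gene are often further apart than the 2 heat shock points.

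The promoters of these groups differed in motifs. Of the 46 below DMSO, 82.6% held a PAC element and 67.4% an RRPE element, against 20.8% and 17.3% of all promoters, and in the ribosome biogenesis list the shares were 92.9% and 88.6%. Of the 15 above DMSO, 60% (9 genes) held a stress response element, against 23.0% of all. Of the 160 genes 2-fold higher under heat shock, 33.8% held that element and 3.12% a heat shock element. These shares are descriptions of 300-base windows, and a match is not a shown binding site.

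**Figure D4:**
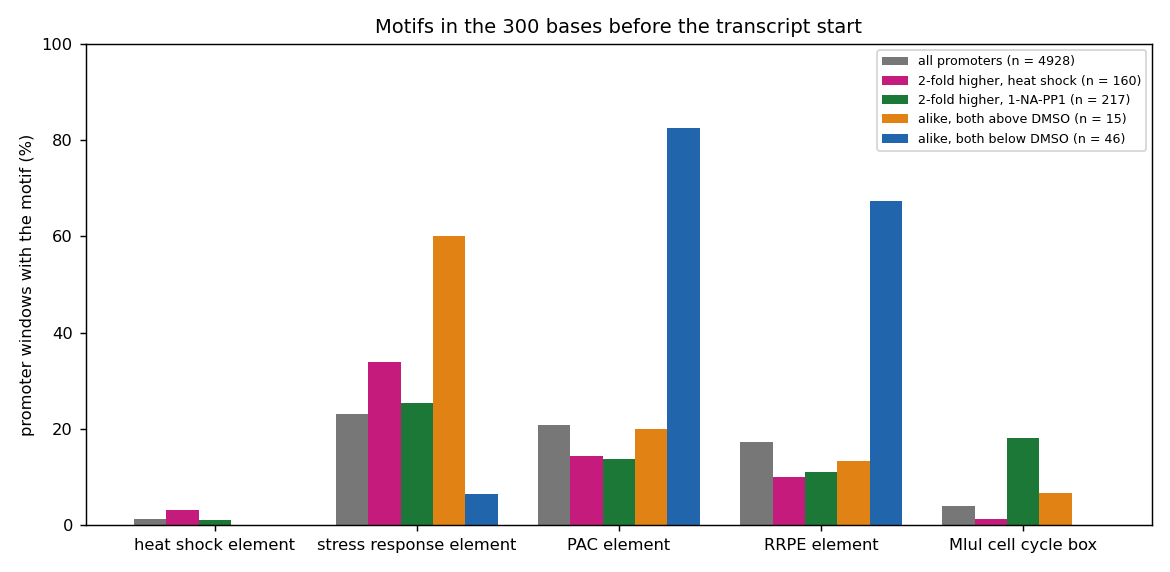
Share (%) of promoter windows, the 300 bases before the transcript start, that hold each of 5 motifs on either strand, for all 4928 promoters and 4 groups of genes. PAC and RRPE elements are most frequent in the 46 genes alike below DMSO (82.6% and 67.4%), the stress response element in the 15 alike above DMSO (60%) and the MluI box in the 217 genes higher with 1-NA-PP1 (18%).

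Called genes whose estimated changes from DMSO had opposite signs in both treatments were read next, so their opposite directions are fixed by the rule. Their movement with the inhibitor was not shown, as 1-NA-PP1 against DMSO gave 0 called genes (0%) in edgeR. The smallest edgeR adjusted p was 0.0679, and 1608 genes had an unadjusted p under 0.05. DESeq2 called 994 and limma voom 749. Heat shock against DMSO at steady state gave 2866 calls (58.5%), 29.6% of the genes tested being higher and 28.9% lower under heat shock. Above DMSO under heat shock and below it with 1-NA-PP1 were JJJ3, PRM5, CPA1, SFA1 and FTR1. JJJ3, which acts in diphthamide synthesis, had 81.8 and 99.3 CPM under heat shock, 54.7 and 59.7 CPM with DMSO and 41.7 and 31.8 CPM with 1-NA-PP1. The 3 groups did not overlap, and the treatments differed by 2.46-fold. FTR1, the iron permease, had 301 and 242 CPM under heat shock, 114 and 116 CPM with DMSO and 102 and 67.7 CPM with 1-NA-PP1 (3.21-fold). CPA1, of arginine synthesis, differed by 2.32-fold, PRM5 by 1.35 and SFA1 by 0.92 on the log2 scale. PRM5 and SFA1 have antisense neighbours.

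Below DMSO under heat shock and above it with 1-NA-PP1 were RSB1, YGR035C, INO1, WSC4 and YEL073C. INO1, the inositol synthesis enzyme, had 34.0 and 49.7 CPM with 1-NA-PP1, 23.3 and 20.8 CPM with DMSO and 16.1 and 12.5 CPM under heat shock (log2 −1.54), and it has an antisense neighbour. WSC4, a membrane protein related to cell wall sensors, had 370 and 469 CPM with 1-NA-PP1, 297 and 280 CPM with DMSO and 140 CPM in both heat shock libraries (−1.58). The rule that chose these 5 genes fixed the order of their group means, inhibitor above DMSO above heat shock. It likewise fixed the reverse order for JJJ3, PRM5, CPA1, SFA1 and FTR1. Each set was picked for the largest changes, from 804 called genes with opposite signs here and from 415 in the JJJ3 set. Genes were eligible for naming only if their mean log2 CPM reached 3. In all, 2531 genes were called, whatever their level. Of the 4901 genes tested, 2932 lay above DMSO with 1-NA-PP1 by estimated change and 1969 below it. The imbalance between 804 and 415 is therefore not read as a result about these genes.

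Metal and nutrient genes also separated the treatments. The iron regulon, the Aft1 targets of iron uptake, had 14 of 17 members higher under heat shock, 0 higher with 1-NA-PP1 and 0 alike, with a median of 0.87. FET3, the oxidase partner of FTR1, had 835 and 634 CPM under heat shock, 315 and 267 CPM with 1-NA-PP1 and 311 and 307 CPM with DMSO (log2 1.34). ARN1, a siderophore transporter (1.46), and HMX1, heme oxygenase (1.58, antisense neighbour), behaved alike in direction, whereas FIT1 (−0.32), ATX1 (−0.05) and ENB1 (0.33) were not called. The list of aromatic amino acid breakdown held ARO9 (1.72, antisense neighbour), ARO10 and their activator ARO80 (0.22). All 3 were called higher under heat shock, and ARO80 was also alike within 1.5-fold. The 3 became 2 with voom or with the 4 libraries alone. Sulfate and methionine genes gave 11 of 17 higher under heat shock and 2 higher with 1-NA-PP1, falling to 7 without replicate 2 of heat shock with DMSO, and MET6, methionine synthase, was at 2564 and 2955 CPM against 1344 and 1175 CPM (log2 1.13).

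Among targets of Gcn4, the activator of amino acid synthesis and a substrate of Srb10, 18 of 41 were higher under heat shock, 4 higher with 1-NA-PP1 and 15 alike, with a median of 0.29. SNZ1, of vitamin B6 synthesis, was the furthest apart (2.02, antisense neighbour), followed by LYS1, of lysine synthesis (1.32). BAT1 (−1.0), LEU1 (−0.98), SER3 (−0.87) and ILV5 (−0.56) were higher with the inhibitor, and 3 of these act in the synthesis of branched-chain amino acids. The list's median against DMSO was −0.35 with 1-NA-PP1 and −0.06 under heat shock. Targets of Ste12, another Srb10 substrate, gave 2 of 15 higher under heat shock and 8 higher with 1-NA-PP1, with a median of −0.26. They were led by SVS1 (−2.10), and by CLN1 (−1.67), which is also on the G1/S list.

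Of glucose-repressed genes, 12 of 25 were higher under heat shock and 6 higher with 1-NA-PP1. POX1, acyl-CoA oxidase, was higher under heat shock, at 25.2 and 24.5 CPM against 7.14 and 10.2 CPM (log2 1.52), and ACS1, acetyl-CoA synthetase, by 1.33. MTH1 (−2.47) and HXT7 (−1.53), a high-affinity hexose transporter with a near-identical copy, were higher with the inhibitor. Glycolysis genes had 10 of 19 higher under heat shock and 2 lower, and HXK2, the main hexokinase, was the lower one furthest apart (−0.94). Respiration genes leaned to the inhibitor, with 25 of 42 higher with 1-NA-PP1 and 3 higher under heat shock (median −0.35). HAP4, the limiting activator subunit of respiratory genes, had 653 and 799 CPM with 1-NA-PP1, 603 and 582 CPM with DMSO and 322 and 381 CPM under heat shock (−1.05). NDE2, an external NADH dehydrogenase, was the respiration gene furthest the other way (1.68).

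Cell wall integrity genes gave 15 of 21 higher under heat shock and 4 higher with 1-NA-PP1 (median 0.52). SPI1 (1.26), PIR3 (1.24) and PIR1 (1.14), cell wall proteins, and PST1 (1.28, antisense neighbour) were among the furthest apart on the heat shock side. Oxidative stress targets of Yap1 gave 16 of 24 higher under heat shock, CCP1, the mitochondrial cytochrome c peroxidase, having 1022 and 1135 CPM against 344 and 295 CPM (1.75), and 13 were alike. Proteasome genes stayed close: 28 of 32 were alike within 1.5-fold, and 13 were called higher under heat shock, with RPN1 (0.79, antisense neighbour) and RPN2 (0.72), the scaffold subunits of the base, furthest apart. The 13 became 21 without replicate 2 of 1-NA-PP1 at steady state. They became 8, with 2 higher with 1-NA-PP1, without replicate 1 of heat shock with DMSO, and 7 with the 4 libraries alone. Unfolded protein response genes were mixed, with 5 of 17 higher under heat shock and 8 higher with 1-NA-PP1, and so were ergosterol genes with 10 and 4 of 23. Multidrug resistance genes gave 0 of 8 higher under heat shock and 4 higher with 1-NA-PP1, among them RSB1 and IPT1 (−1.09), an enzyme of sphingolipid synthesis. Phosphate regulon genes gave 5 and 1 of 14 and meiosis genes 1 and 1 of 4. Subunits of RNA polymerases I and III gave 3 higher under heat shock and 4 higher with 1-NA-PP1 of 18, and this balance moved with single libraries: it was 8 and 2 without replicate 1 of 1-NA-PP1 at steady state, 3 and 5 without its replicate 2, and 0 and 2 without replicate 1 of heat shock with DMSO. Without replicate 2 of heat shock with DMSO, 1 was higher under heat shock. Of 22 heat shock response genes that the authors list, 13 were higher under heat shock and 0 with 1-NA-PP1, and of the 13 they list as induced, 11 and 0. The median log2 differences of these lists were 0.63 and 0.93. They were 0.40 and 0.69 without replicate 1 of 1-NA-PP1 at steady state, and 0.92 and 1.24 without its replicate 2. Without replicate 1 of heat shock with DMSO the 13 became 8 and the 11 became 7; how these lists were chosen is not stated and may rest on these samples, so the counts are not independent evidence of direction.

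**Figure D5:**
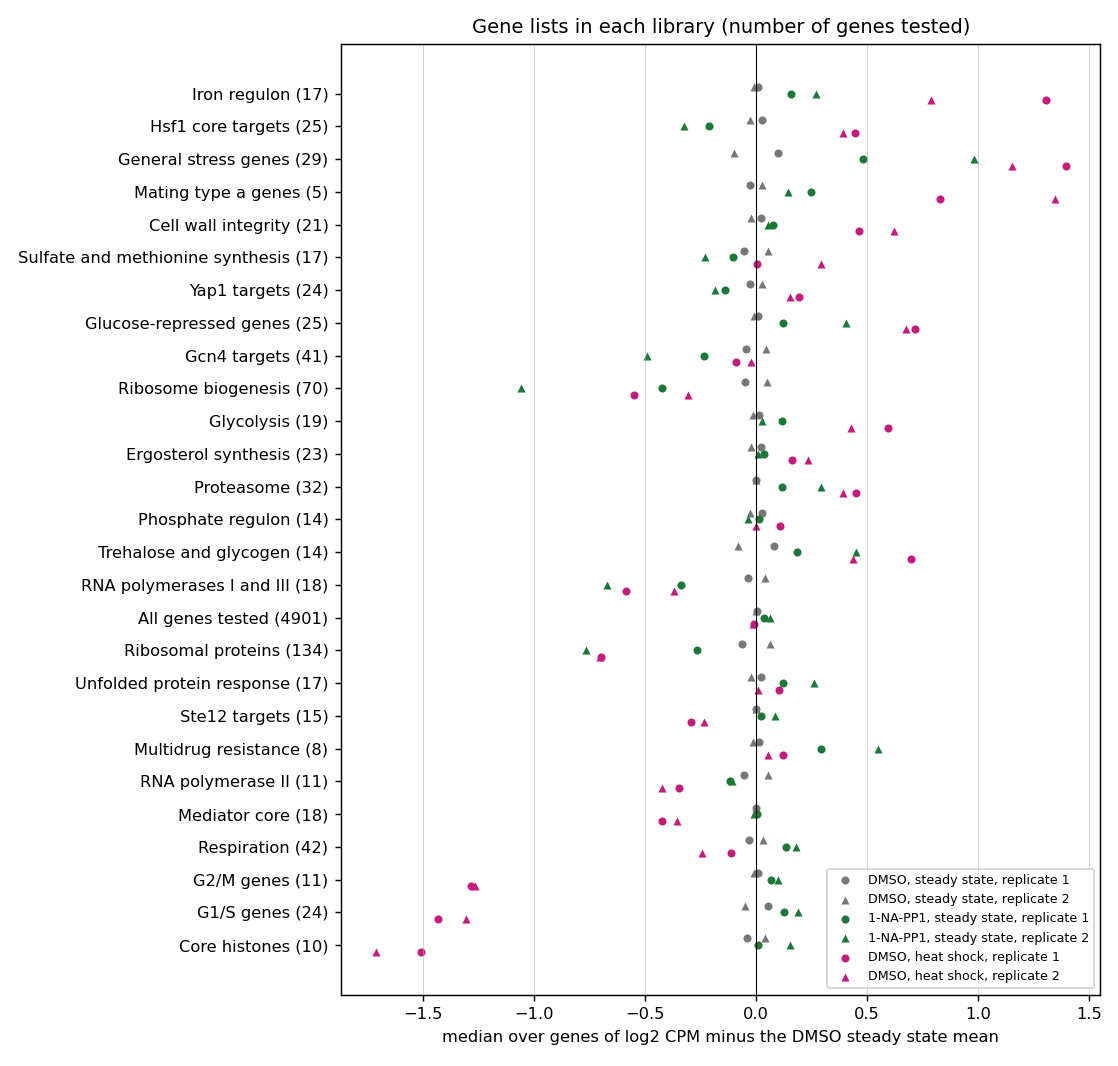
Median over the genes of each list with at least 5 genes tested, the authors' lists left out, of log2 CPM minus the DMSO steady state mean, for the 6 libraries of DMSO at steady state, 1-NA-PP1 at steady state and DMSO under heat shock (circles replicate 1, triangles replicate 2); lists are ordered by the median log2 difference between heat shock and 1-NA-PP1. Among the lists drawn, heat shock points lie furthest right for iron, stress and mating type a genes and furthest left for histone, G1/S and G2/M genes, and the 2 inhibitor points lie furthest apart for ribosome biogenesis genes.

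Subunits of Mediator and RNA polymerase II differed by less than 2-fold between the treatments in every case tested. SSN3, the plasmid gene for Srb10, had 2976 and 3431 CPM with 1-NA-PP1, 2291 and 2083 CPM under heat shock and 2440 and 2436 CPM with DMSO, and was 1.46-fold higher with the inhibitor (adjusted p = 0.00153). SSN8, the cyclin, was alike (log2 −0.16), with 118 and 135 CPM against 115 and 111 CPM. TRP1, the marker of the plasmid, was 1.33-fold higher under heat shock (adjusted p = 0.0381), so both genes of the plasmid differed in opposite directions. Of 18 other Mediator subunits, 9 were higher with 1-NA-PP1, 1 higher under heat shock and 11 alike, SOH1, the Med31 subunit, being the furthest apart (−0.76). RNA polymerase II subunits gave 5 of 11 higher with 1-NA-PP1, 1 higher under heat shock and 9 alike. The 5 became 2 when either DMSO steady state library, either heat shock library with DMSO or replicate 1 of 1-NA-PP1 at steady state was left out, and 0 with voom or with the 4 libraries alone. Mating type genes were as the label says, with MF(ALPHA)1, the alpha pheromone gene, at 2536 and 2567 CPM with 1-NA-PP1 but 537 and 479 CPM under heat shock (log2 −2.33, antisense neighbour), and STE3, the receptor alpha cells carry, at −1.26. STE2, the receptor of a cells, was low, at 12.3 and 11.5 CPM against 22.5 and 26.5 CPM under heat shock. All 3 alpha genes tested were higher with 1-NA-PP1. Of 5 mating type a genes tested, 2 were higher under heat shock (1 with voom), 0 higher with 1-NA-PP1 and 0 alike, with a median of 0.59.

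With the authors' deposited scaling factors in place of TMM, in a fit without the libraries of 1-NA-PP1 under heat shock, 275 genes were called, 113 higher under heat shock and 162 higher with 1-NA-PP1, and 274 of these were also called with TMM, in the same direction. No gene met the rule for alike levels with those factors, while the median difference over all genes was −0.06.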

How the data were processed

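Raw counts, whole numbers of reads per transcript on sacCer3, were deposited by the authors, and per the submitters' processing notes DESeq2, HTSeq, SAMtools, STAR 2.5.2b and cutadapt 1.9.1 were used, in an order and with settings not given in the sources used here. The authors also deposited scaling factors per library, each a ratio to the first library of its table, and (unit other) gene names with coordinates and lists of heat shock response genes. The factors are labelled DESeq, and how they were made is not otherwise given. Whether counting used strand is not stated.

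Counts were fitted in R 4.3.3 with edgeR 4.0.16 (filterByExpr, which left out 27 features, TMM factors, 1 quasi-likelihood model of the 4 groups over all 8 libraries, two-sided tests, Benjamini-Hochberg adjustment over 4901 genes). Log2 differences are relative to the bulk of genes and do not measure total RNA synthesis. CPM are edgeR values after TMM scaling. The smallest two-sided p of an exact permutation test on 2 against 2 libraries is 0.33. An interval within 1.5-fold is a pair of one-sided tests, not adjusted over genes. Statistics were tested on simulated counts drawn independently for each gene and library. Shifts of whole gene groups in 1 library, as seen here for ribosome genes, were not part of that test.

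Members and lists were chosen with earlier results of these data known. Named genes were the 12 furthest apart in each direction, 8 alike genes furthest above and 8 furthest below DMSO, the 5 alike genes with the most CPM, 5 in each direction on opposite sides of DMSO, up to 4 per list and 9 markers; other list members were named after their values were seen. The design had planned promoter windows from another table; here 300 bases before the authors' transcript start were read from RefSeq R64, in which 4842 of 4842 matched coding regions lay inside the transcript on its strand. A total of 1682 features overlap one on the opposite strand. Alternatives were median-of-ratios and deposited factors, DESeq2 1.42.0, limma 3.58.1 voom, no filter, a replicate block, the 4 libraries alone, other folds and each library left out.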

Additional observations from a re-analysis of the deposited data

How the results depend on the processing

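The count of 2531 genes stayed between 1728 and 2668 with median-of-ratios factors, DESeq2, voom, no filter on low counts, the 4 libraries alone or a replicate block, and between 2096 and 2636 when 1 library was left out; in each of these fits every gene called in both had the same direction. Genes at alike levels numbered 2582 to 2872 under the same settings and 2609 to 2869 with 1 library left out. Deposited factors gave 275 calls, 113 higher under heat shock and 162 higher with 1-NA-PP1, 0 genes at alike levels and 576 calls for heat shock against DMSO; the cause was not tested. A fold of at least 2 left 377 calls, a test against 1.5-fold (glmTreat) 486 and an interval within 25% 1110 alike genes, by the construction of those rules. For 1-NA-PP1 against DMSO, edgeR called 0, DESeq2 994 and voom 749, and leaving out 1 library gave 0 to 1712, the highest without replicate 1 of 1-NA-PP1; the cause was not tested. Same-numbered libraries did not deviate together (r = −0.25 in the direct comparison), so the numbers are not taken as pairs. With 2 libraries a group, opposite-numbered libraries have the same r with a positive sign, so they did deviate together to that extent. The replicate block gave 2410 calls, 1173 and 1237, and 2859 alike genes. A crossed pairing, added after seeing the data, gave 2510 calls. Among named genes, SSF1 was 0.53 without replicate 1 of 1-NA-PP1 and −0.39 without replicate 2, and RPS26B 0.43 and −0.43, each called and with opposite signs. Over all alternatives, named genes stayed called in the same direction, or stayed uncalled, in 2300 cases. They lost the call in 145, gained a call in 17, and were called in the reversed direction in the 2 just given. Genes that stayed uncalled were counted as kept whatever their sign. AGX1, for example, was 0.02 in the main fit and −0.24 without replicate 1 of 1-NA-PP1 at steady state. The shallower heat shock libraries limit genes near 0.220 CPM.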
